A study of Mus musculus with 10 samples.

Results

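Described here are 9 genes of the proneural bHLH, Hes and Id families in the newborn mouse brain: the proneural and neuronal differentiation factors Neurog2, Neurod1, Neurod2 and Neurod6, the repressors Hes1 and Hes5, and the inhibitors Id1, Id2 and Id3. They were chosen by gene symbol, as every probe set whose symbol in the array's probe table is 1 of these names. All 9 genes were present, with 10 probe sets of the 12422 that are not controls (Hes5 has 2 probe sets and each of the others has 1). RNA of the whole brain at postnatal day 0 had been hybridised to 10 Affymetrix arrays in 4 groups. XmO animals carry 39 chromosomes with a single maternal X, and XX_Paf females carry 40; both groups have 3 arrays and come from the cross given as C57BL/6J x C3H/Paf. XpO animals carry 39 chromosomes with a single paternal X, and XX_InX females carry 40; both groups have 2 arrays and come from the cross given as In(X)/C3H x C57BL/6J. The cross therefore differs between XmO and XpO and between the XX groups. It differs in the order in which the strains are given and in the C3H parent named (C3H/Paf or In(X)/C3H). The labels do not say whether the mother is written first, or whether an array holds 1 animal or a pool.

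These factors act on one another. Proneural bHLH proteins pair with E proteins, bind E-box sequences and drive progenitors towards the neuronal fate; Neurog2 acts in dividing progenitors of the cortex and other regions, and the NeuroD factors act later, in neurons that are differentiating or mature. Hes1 and Hes5, which Notch signalling switches on in neural progenitors, repress the proneural genes, and Id proteins, which lack the basic region that binds DNA and are often induced by BMP signalling, take E proteins out of use. In the newborn brain Neurod2 and Neurod6 mark cortical and hippocampal excitatory neurons, Neurod1 marks granule neurons of the hippocampus and cerebellum, and Id1 and Id3 are found in progenitors and in blood vessels.

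The values are intensities on a linear scale. Every array had the same trimmed mean, 500.3, and arrays correlated at 0.927 to 0.969 in log2 intensity (a correlation over probe sets, which do not count as replicates); XpO 18 had the lowest median correlation with the others (0.945). A probe set is called above background here where it is brighter than the brightest of 9 Y-linked probe sets on the same array, which have no template in these animals (33.6 to 136.6). By that measure 8 of the genes were above background on all 10 arrays through their brightest probe set, and Neurog2 on 8 of 10. The second Hes5 probe set was above background on 2 of 10 arrays and was too dim to be tested. Doublecortin (Dcx), a marker of young neurons, was at 6842 to 8463 on all arrays. In RNA of a whole brain, fewer cells of a type and less RNA per cell cannot be told apart.

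**Figure D1:**
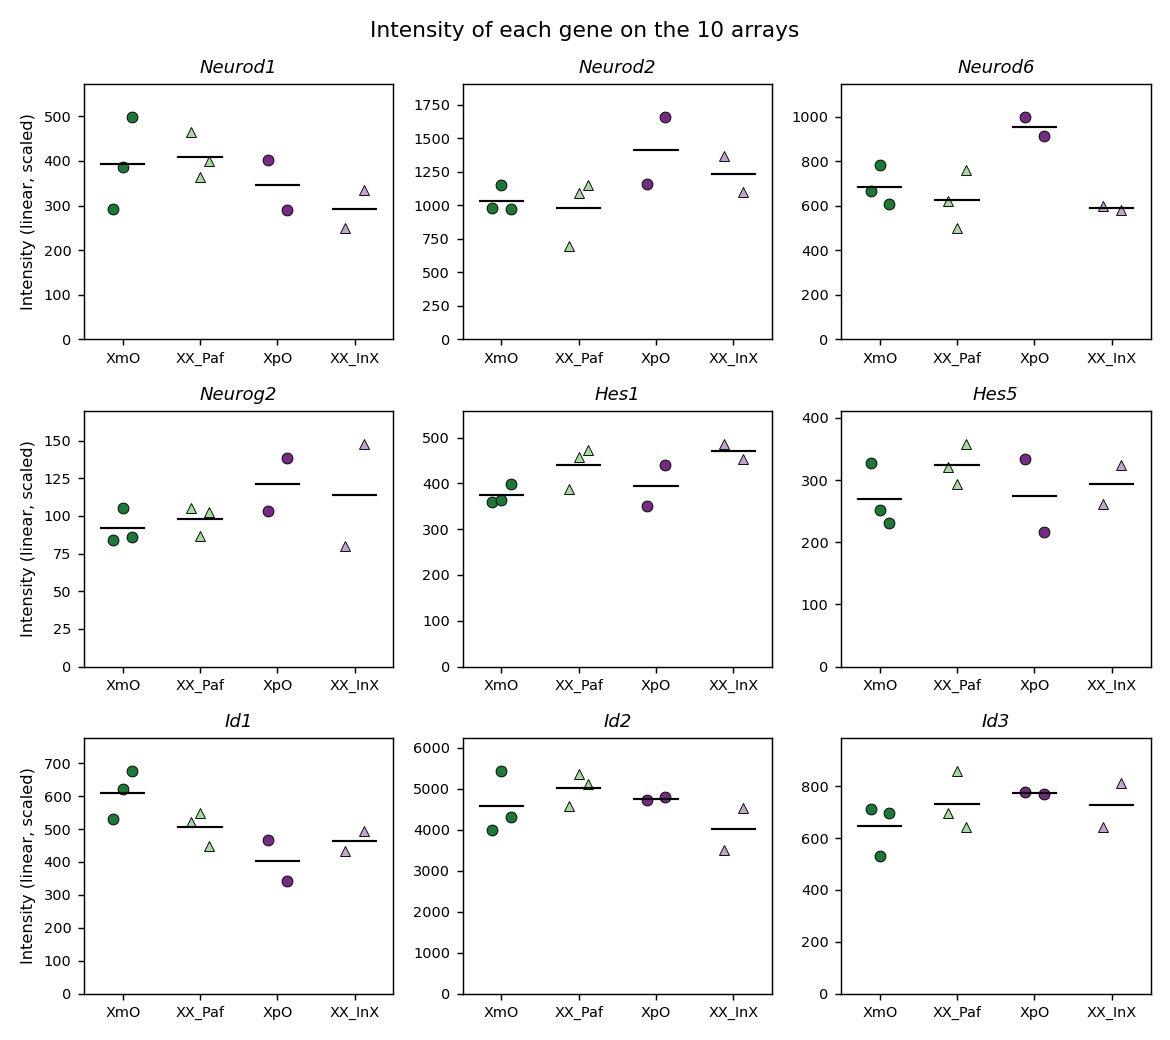
Linear intensity (y axis, from 0) of the 9 genes by group (x axis); each point is 1 array and each bar the mean of its group (n = 3, 3, 2 and 2 arrays from left to right), with the brighter probe set for Hes5. The XpO arrays of Neurod6 (912.1 and 998.2) lie above all 8 other arrays, and for Neurog2 and Hes5 all groups overlap.

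No member passed the test in any comparison. A linear model over all 8695 tested probe sets (limma, Benjamini-Hochberg adjustment, threshold 0.05) called 0 of the 9 member probe sets in XO against XX over both crosses (0.0115% of all tested probe sets were called), in XmO against XX_Paf (0.023%), in XpO against XX_InX (0.0115%), in XmO against XpO (0.0115%), in the difference between crosses, which sets XmO against XX_Paf beside XpO against XX_InX (0.023%), in XX_Paf against XX_InX (0.0805%) and in limma's F test of any difference among the 4 groups (0.046%). At an unadjusted p under 0.05 the limma counts were 1 of 9 in XO against XX (2.6% of all tested), 0 in XmO against XX_Paf (5.53%), 1 in XpO against XX_InX (3.38%), 2 in XmO against XpO (4.83%), 0 in the difference between crosses (5.91%), 1 in XX_Paf against XX_InX (13.8%) and 2 in the F test (8.23%). Groups did not overlap for 0 of 9 in XO against XX, where both crosses had to be apart in the same direction (0.851%), for 0 in XmO against XX_Paf (13.9%) and for 0 in the difference between crosses, where both had to be apart in opposite directions (2.02%). The values that follow are therefore descriptions of where the arrays lie, and a p that misses the threshold does not show that groups were alike.

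The NeuroD genes come first. Neurod6, a factor of postmitotic excitatory neurons of the cortex and hippocampus, had the widest range of group means of the 9 genes, 0.70 in log2 between XpO and XX_InX. Its intensity was 998.2 and 912.1 on the XpO arrays 15 and 18, and 598.9 and 578.8 on the XX_InX arrays 1 and 19. In the Paf cross it was 666.4, 782.5 and 606.0 on the XmO arrays 1, 2 and 7, and 619.9, 499.3 and 759.6 on the XX_Paf arrays 1, 2 and 3. Both XpO arrays were thus above all 8 other arrays, which reached 782.5 at most. Of all tested probe sets 1.41% had XpO above all other arrays. Members were searched for any of the 4 groups apart from all the others, above or below, and only Neurod6 had one. The share of all tested probe sets with any of these patterns was not counted, so 1.41% is not the share for the whole search. XX_Paf overlapped XmO and XX_InX. In XpO against XX_InX the group means were 955 ± 60.9 and 589 ± 14.2 (SD, n = 2 each), a log2 fold change of 0.70 (SE 0.20, 95% confidence interval 0.26 to 1.13), which did not pass over all probe sets (limma, adjusted p = 0.99975). In XmO against XX_Paf the means were 685 ± 89.7 and 626 ± 130.3 (n = 3 each) and the groups overlapped. Over both crosses the log2 fold change of XO against XX was 0.42 (SE 0.13, interval 0.14 to 0.70; limma, adjusted p = 0.9995), and in XmO against XpO it was -0.49 (SE 0.18, interval -0.88 to -0.09; limma, adjusted p = 0.953). The difference of this effect between crosses did not pass either (limma, adjusted p = 0.832).

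Neurod2, which acts in maturing cortical neurons and at their synapses, was also brighter in XpO than in XmO. It was at 1159.5 and 1658.5 on XpO 15 and 18, at 982.2, 1154.2 and 968.9 on XmO 1, 2 and 7, at 1369.1 and 1096.1 on XX_InX 1 and 19, and at 696.2, 1095.2 and 1151.6 on XX_Paf 1, 2 and 3. The XmO and XpO arrays did not overlap, by a narrow margin (1154.2 against 1159.5), and each XO group overlapped the XX group of its own cross. In XmO against XpO the log2 fold change was -0.43 (SE 0.22; limma, adjusted p = 0.969), and it was -0.17 without XpO 18. Groups of this comparison were apart for 4 of the 9 member probe sets, against 17.4% of all tested probe sets.

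Neurod1, which drives granule neuron differentiation and is also active in the pituitary and the retina, ran differently from the other NeuroD genes. It was at 464.2, 364.1 and 400.8 on XX_Paf 1, 2 and 3 and at 249.7 and 334.9 on XX_InX 1 and 19, so the XX groups did not overlap. The XO groups spanned the same levels, with 292.4, 385.6 and 498.4 on XmO 1, 2 and 7 and 402.0 and 290.1 on XpO 15 and 18, and overlapped each other and the XX group of their cross. In XX_Paf against XX_InX the log2 fold change was 0.50 (SE 0.25, 95% confidence interval -0.04 to 1.03; limma, adjusted p = 0.393); it was 0.28 without XX_InX 1. XX groups were apart for 2 of the 9 member probe sets, against 37.1% of all tested probe sets.

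The 250 bases before the start of the 3 NeuroD genes are shown because these genes, although close relatives, did not follow the same order of groups. They come from the RefSeq promoter table (build GRCm38.p6), which held 7 of the 9 members (not Hes1 or Id1); all 3 genes lie on the minus strand and the sequences read 5′ to 3′ towards the gene. Capitals mark E-boxes, CANNTG, which read as the same pattern on both strands and which bHLH dimers bind.
Neurod1 (chr2:79456637-79456886): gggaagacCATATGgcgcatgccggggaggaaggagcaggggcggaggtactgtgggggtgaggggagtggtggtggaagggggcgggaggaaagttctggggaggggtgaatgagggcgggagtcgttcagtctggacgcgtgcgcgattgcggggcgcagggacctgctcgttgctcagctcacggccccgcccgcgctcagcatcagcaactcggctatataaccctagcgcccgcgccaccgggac
Neurod2 (chr11:98329646-98329895): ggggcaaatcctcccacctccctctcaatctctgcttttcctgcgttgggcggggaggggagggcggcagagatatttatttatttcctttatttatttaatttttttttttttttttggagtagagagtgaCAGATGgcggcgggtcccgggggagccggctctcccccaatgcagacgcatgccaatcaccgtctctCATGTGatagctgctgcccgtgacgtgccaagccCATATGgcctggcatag
Neurod6 (chr6:55681264-55681513): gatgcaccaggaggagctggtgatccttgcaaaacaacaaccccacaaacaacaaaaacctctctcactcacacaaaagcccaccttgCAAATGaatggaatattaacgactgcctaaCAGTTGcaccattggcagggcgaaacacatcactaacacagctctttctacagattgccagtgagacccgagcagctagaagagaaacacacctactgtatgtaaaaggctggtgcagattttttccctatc
The window of Neurod1 holds 1 E-box, that of Neurod2 holds 3 and that of Neurod6 holds 2, where 66.2% of the 32851 promoters of this table hold at least 1. Neurod1 and Neurod2 share the form CATATG, which 3.46% of all these windows hold; this form was singled out after the sequences were seen. The windows differ in base composition, with 67.6% G and C in Neurod1, 52.8% in Neurod2 and 46% in Neurod6. A match is a description of letters and not a binding site.

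Over the 10 arrays Neurod1 and Neurod2 tended to run in opposite directions, with Pearson's r = -0.65 (permutation p = 0.0375, 0.375 after adjustment over 10 pairs) and Spearman's rho = -0.58 (permutation p = 0.0872, 0.872 adjusted). Without XX_InX 1 and XmO 7, the arrays farthest from the median of Neurod1, r was -0.61; it was -0.58 for deviations from the group means and -0.39 over the 6 arrays of the Paf cross. The relation did not pass the correction. Neurod2 and Neurod6 gave r = 0.42 (permutation p = 0.224, 0.986 adjusted) and rho = 0.45 (permutation p = 0.188, 0.941 adjusted); r was 0.15 without XX_Paf 1 and XpO 18, 0.11 for deviations from the group means and 0.28 in the Paf cross. None of the 10 pairs within families passed by either measure, Hes1 with Hes5 and the 3 pairs of Id genes included. The In(X) cross holds 4 arrays, too few for a value of its own.

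**Figure D2:**
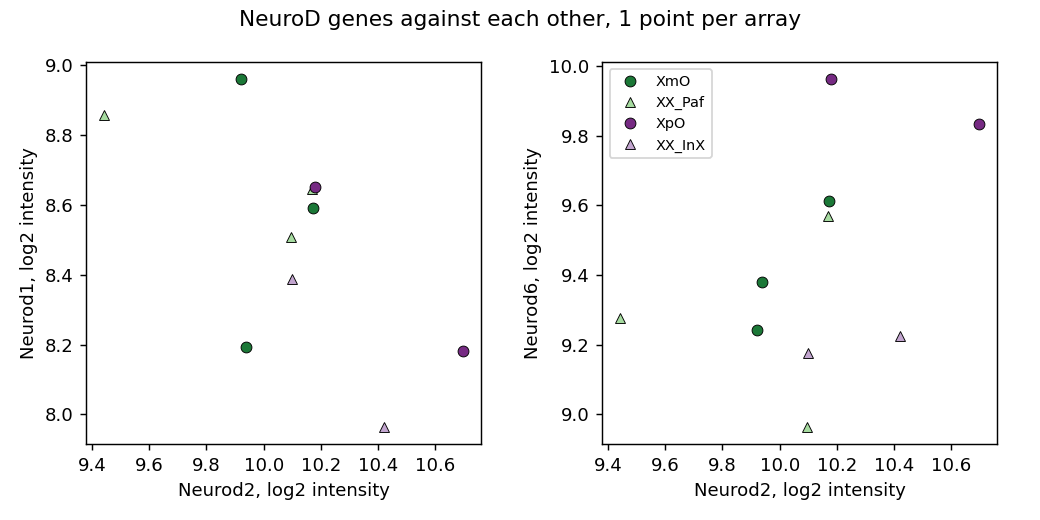
Log2 intensity of Neurod1 (left) and Neurod6 (right) on the y axes against Neurod2 on the x axes, with 1 point per array and colours for the 4 groups. Neurod1 tends to be lower where Neurod2 is higher on these arrays (r = -0.65, permutation p = 0.375 after adjustment over 10 pairs). In the right panel both XpO points lie above the other 8.

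Neurog2, the proneural factor of dividing progenitors, was dim. It was at 84.2, 105.5 and 86.0 on XmO 1, 2 and 7, at 105.4, 86.6 and 102.5 on XX_Paf 1, 2 and 3, at 103.3 and 138.6 on XpO 15 and 18, and at 80.0 and 147.7 on XX_InX 1 and 19. All groups overlapped, and the XX_InX arrays alone spanned the whole range. It was below background on XmO 7 and XX_InX 1. The cut differs by array, with 136.6 on XmO 7 and 67.7 on XmO 1, where Neurog2 had a similar intensity. The standard errors of Neurog2 were the widest of the 9 genes in all 6 comparisons (0.25 in XO against XX).

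The Hes repressors come next, and neither passed the test in any comparison. Hes1, which holds progenitors in the undifferentiated state, was at 360.2, 363.4 and 398.2 on XmO 1, 2 and 7 and at 386.9, 457.2 and 473.7 on XX_Paf 1, 2 and 3. In the other cross it was at 350.6 and 439.6 on XpO 15 and 18 and at 485.5 and 454.1 on XX_InX 1 and 19. The Paf groups overlapped through XmO 7 and XX_Paf 1, and the In(X) groups did not overlap. In XpO against XX_InX the log2 fold change was -0.26 (SE 0.19, 95% confidence interval -0.66 to 0.15; limma, adjusted p = 0.99975), and -0.10 without XpO 15. Groups of this comparison were apart for 3 of the 9 member probe sets (Neurod6, Hes1 and Id2), against 23.4% of all tested probe sets. In order of group means Hes1 ran from XmO (374 ± 21.1) over XpO (395 ± 62.9) and XX_Paf (439 ± 46.1) to XX_InX (470 ± 22.2), and each neighbour in that order overlapped the next.

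Hes5, the other main Notch effector of neural progenitors, was at 327.7, 252.1 and 230.7 on XmO 1, 2 and 7 and at 321.2, 292.9 and 357.7 on XX_Paf 1, 2 and 3. It was at 333.4 and 216.4 on XpO 15 and 18 and at 262.1 and 323.8 on XX_InX 1 and 19. XmO 1 and XpO 15 were as high as the XX arrays, so all groups overlapped. The dim second probe set of Hes5 ran otherwise, with 51.9, 131.1 and 70.4 on XmO, 11, 49.3 and 33.5 on XX_Paf, 22.4 and 32.1 on XpO and 108.3 and 51.6 on XX_InX; only XmO 2 and XX_InX 1 were above background, so these values carry no order of groups.

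Of the Id genes, Id1 differed most between groups. It was at 529.5, 620.3 and 675.3 on XmO 1, 2 and 7 and at 466.9 and 341.0 on XpO 15 and 18, so the XO groups did not overlap. The means of the XX groups lay between those of the XO groups, with 520.7, 549.1 and 448.6 on XX_Paf 1, 2 and 3 and 433.6 and 493.5 on XX_InX 1 and 19, and XX_Paf overlapped each of the other groups. The means were 608 ± 73.6 in XmO (n = 3) and 404 ± 89.0 in XpO (n = 2), a log2 fold change of 0.60 (SE 0.18, 95% confidence interval 0.20 to 1.001), which did not pass (limma, adjusted p = 0.780); it was 0.37 without XpO 18. Neither XO group was apart from the XX group of its own cross.

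Id2, the Id gene of maturing neurons as well as of progenitors, was at 3981.1, 5423.4 and 4313.1 on XmO 1, 2 and 7 and at 4582.9, 5354.4 and 5118.9 on XX_Paf 1, 2 and 3. It was at 4723.3 and 4796.9 on XpO 15 and 18 and at 3512.2 and 4525.2 on XX_InX 1 and 19. The XX_InX arrays were below those of XX_Paf and of XpO, without overlap, and the XmO arrays overlapped all groups. The log2 fold change was 0.33 (SE 0.15; limma, adjusted p = 0.349) in XX_Paf against XX_InX and 0.26 (SE 0.16; limma, adjusted p = 0.99975) in XpO against XX_InX. Both estimates shrank without XX_InX 1, to 0.15 and 0.07.

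Id3, like Id1 a target of BMP signalling, was at 714.0, 531.9 and 697.6 on XmO 1, 2 and 7 and at 696.3, 857.4 and 641.6 on XX_Paf 1, 2 and 3. It was at 778.9 and 770.9 on XpO 15 and 18 and at 642.0 and 812.4 on XX_InX 1 and 19. XmO lay below XpO without overlap, the opposite side from Id1, with a log2 fold change of -0.27 (SE 0.18; limma, adjusted p = 0.969; -0.13 without XmO 2). All other pairs of groups overlapped.

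The intervals say how large a difference these arrays leave possible for 1 probe set in 1 comparison. They are not corrected for the number of intervals, and those of Neurog2 are limited by background. In XO against XX the 95% confidence intervals of all 9 member probe sets lay within -0.56 (Hes5) and 0.70 (Neurod6) on the log2 scale, and so did not reach a doubling or halving, a log2 fold change of 1 in size. In XmO against XX_Paf they lay within -0.79 and 0.62, again all 9 inside that limit. In XpO against XX_InX 8 of 9 were inside it, with Neurod6 reaching 1.13; in XmO against XpO 7 of 9 were, in XX_Paf against XX_InX 8 of 9, and in the difference between crosses 5 of 9. The median log2 fold change of the 9 was 0.03 in XO against XX, -0.10 in XmO against XX_Paf, 0.14 in XpO against XX_InX, -0.07 in XmO against XpO, -0.24 in the difference between crosses and 0.07 in XX_Paf against XX_InX, where the medians of all tested probe sets were 0.00, 0.00, -0.01, 0.00, 0.01 and -0.02.

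**Figure D3:**
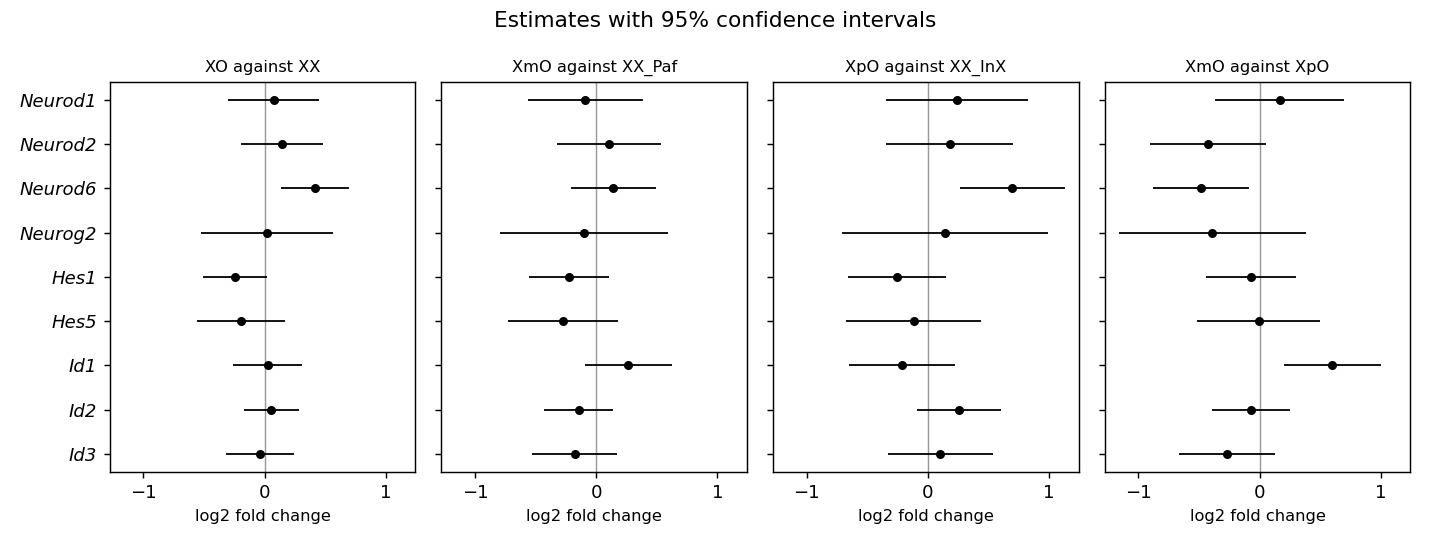
Log2 fold change (x axis) of the 9 genes (1 line each) in 4 comparisons, with points for limma's estimates and lines for their 95% confidence intervals. Intervals of Neurod6 leave out 0 in 3 of these panels and that of Id1 in XmO against XpO, before any correction for the 8695 probe sets tested.

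Marker genes of cell types in which these factors are found were summed on each array. Of the 8 genes listed for cortical excitatory neurons, Tbr1 and Fezf2 were measured, and their sum was 2111.7 to 2743.1 in XpO, 1769.4 to 2310.5 in XX_InX, 1774.1 to 2144.7 in XmO and 2104.3 to 2706.4 in XX_Paf. The XpO arrays, highest for Neurod6, overlapped each other group in this sum. Of its genes, Tbr1 by itself was higher on the XpO arrays than on every XmO array, and Fezf2 overlapped. The part of these neurons in the values of Neurod6 was not tested. Of 11 endothelial genes 8 were measured, 6 of them above background on every array, and their sum overlapped between XmO (3196.3 to 3728.8) and XpO (3285.9 to 3838.5), the groups that were apart for Id1. Of 8 blood genes 3 were measured, all above background on every array, and their sum did separate the crosses, with 11170.1 to 17147.7 in XmO and 11626.2 to 16870.1 in XX_Paf against 5817.6 to 7335.4 in XpO and 3985.0 to 5987.1 in XX_InX; the part of blood in the differences between crosses was not tested. Of 8 cerebellar genes 7 were measured, 5 above background on every array, with sums of 6843.0 to 8719.8 in XX_Paf and 6243.9 to 7507.0 in XX_InX, the groups that were apart for Neurod1. The cerebellar sums were 6716.0 to 7507.7 in XmO and 6401.7 to 6603.9 in XpO. The groups apart for Neurod2, Neurod6, Id1 and Id3 thus did not overlap in them. For the pituitary, where Neurod1 is also active, 6 of 7 genes were measured, 3 of them above background on every array, and their sum was 1368.3 to 1765.3 in XX_Paf and 1707.7 to 2044.9 in XX_InX. In XpO the pituitary sum was 1357.6 to 1675.3, so XpO and XX_InX, the groups apart for Neurod6, Hes1 and Id2, did not overlap in it. These groups were apart in sums of 2 further lists: interneuron genes (6 of 6 measured, 5 above background on every array), with 5409.4 to 5477.1 in XpO against 4902.8 to 5077.9 in XX_InX, and choroid plexus genes (3 of 5 measured, 1 above background on every array and 1 on none), with 1026.6 to 1944.5 against 2028.1 to 2261.5. In the Paf cross the interneuron sum was 5244.0 to 6069.7 in XmO and 4577.1 to 5962.0 in XX_Paf, and that of choroid plexus 1399.9 to 2671.4 and 2469.5 to 3350.8. The choroid plexus sums of XX_Paf and XX_InX, the groups apart for Neurod1 and Id2, did not overlap either. Of single tested probe sets, 23.4% were apart in XpO against XX_InX and 37.1% in XX_Paf against XX_InX. Such a share was not counted for sums. The part of pituitary, interneurons and choroid plexus in the members' values was not tested. Skeletal muscle genes (7 of 7 measured, 1 above background on every array and 2 on none) summed to 3544.1 on XX_Paf 2 and to at most 1121.0 on the other arrays. Radial glia and astrocyte genes (9 of 10 measured, 7 above background on every array) summed to 18877.8 to 21555.0 over all arrays. Their sum was 19304.4 to 20018.6 in XmO and 20119.6 to 20759.9 in XpO, without overlap. The part of cerebellum, radial glia and astrocytes in the members' values was not tested either.

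The other genes of these pathways gave no call either. Among other bHLH factors 12 probe sets were tested, among other Hes, Hey and Id genes 5, in the Notch pathway 25, in the BMP pathway 16 and among genes of newborn neurons 30, and limma called 0 of them in each of the 6 comparisons. At an unadjusted limma p under 0.05 the counts over the 88 probe sets were 2 in XO against XX (2.6% of all tested probe sets), 7 in XmO against XX_Paf (5.53%), 3 in XpO against XX_InX (3.38%), 7 in XmO against XpO (4.83%), 3 in the difference between crosses (5.91%) and 6 in XX_Paf against XX_InX (13.8%). In XO against XX the medians of these lists were -0.22, 0.01, 0.02, -0.05 and -0.00 in log2, against 0.00 for all tested probe sets. Of the bHLH list the smallest p was that of Nhlh1, which marks neurons soon after they leave the cell cycle. Nhlh1 was at 123.0 and 50.6 on XpO 15 and 18 and at 176.7 and 186.5 on XX_InX 1 and 19, at 104.4, 159.9 and 168.4 on XmO 1, 2 and 7 and at 156.1, 197.7 and 225.4 on XX_Paf 1, 2 and 3. It was lower in estimate in XO against XX (-0.82, SE 0.26; limma, adjusted p = 0.9995; -0.50 without XpO 18), with the In(X) groups apart and the Paf groups overlapping, and XpO 18 below background.

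In the Notch pathway, estimates in XO against XX ran both ways, 15 higher and 10 lower. The sheddase gene Adam10 had the smallest p in XmO against XX_Paf (log2 fold change -0.44, SE 0.16; limma, adjusted p = 0.877), while the groups overlapped on its other probe set. Aph1a, a subunit of gamma-secretase, had it in XpO against XX_InX (0.44, SE 0.20; limma, adjusted p = 0.99975; 0.24 without XX_InX 19). The Notch1 receptor's brighter probe set ranged from 461.5 to 700.2 over the 10 arrays, and that of the nuclear effector Rbpj from 326.6 to 412.5. In the BMP pathway the shared transducer Smad4 had the smallest p in XmO against XpO, as 912.4, 1236.5 and 1189.7 on XmO 1, 2 and 7 and 923.0 and 612.3 on XpO 15 and 18. Its log2 fold change was 0.55 (SE 0.18; limma, adjusted p = 0.780; 0.26 without XpO 18 and 0.85 without XpO 15). XX_Paf (1234.9 to 1338.4) was above XX_InX (769.1 to 861.4) by 0.65 (SE 0.18; limma, adjusted p = 0.186), so the crosses differed in the same direction in XX females, and neither value passed.

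Among genes of newborn neurons, Tbr1, a factor of deep cortical layers, was at 2170.5 and 1491.6 on XpO 15 and 18 and at 1459.5, 1407.2 and 1198.0 on XmO 1, 2 and 7, so these groups did not overlap. XX_Paf reached 2078.8 and XX_InX 1668.6. The groups of XmO against XpO were apart for 10 of the 30 tested probe sets of this list, against 17.4% of all tested probe sets. Of these 6 were higher in XmO (on Sox11, Sox4, Mapt and Ncam1) and 4 lower (on Tbr1, Tubb3 and Dcx). Sox11, Mapt and Ncam1 each had another tested probe set on which these groups overlapped, with an estimate of -0.04 on that of Sox11. Fezf2, the other cortical marker measured, had an estimate of -0.0029 (SE 0.19). For Tbr1 the estimated difference between crosses was -0.68 (SE 0.27; limma, adjusted p = 0.832; -0.41 without XpO 15). Sox11, which acts in newborn neurons with Sox4, had the smallest p of all 5 lists in XO against XX, on the dimmer of its probe sets. There it was at 2032.1, 1876.3 and 1535.0 on XmO 1, 2 and 7 against 2486.5, 2945.4 and 2160.9 on XX_Paf 1, 2 and 3, and at 1259.8 and 750.6 on XpO 15 and 18 against 1465.2 and 1753.7 on XX_InX 1 and 19. XO arrays were below the XX arrays of their cross without overlap. The log2 fold change was -0.60 (SE 0.15, adjusted p = 0.9995 by limma), and -0.41 without XpO 18. Both crosses were apart in the same direction for 0.851% of all tested probe sets, and in these lists also for 1 probe set of Lyl1. On the brighter Sox11 probe set the groups overlapped and the estimate was -0.19 (SE 0.12).

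By a measure of likeness, the root mean squared difference of centred log2 values over the 10 arrays among 7815 probe sets with 1 gene symbol, the probe sets nearest to Neurod6 were those of Pitpnb, a phosphatidylinositol transfer protein gene (0.17), Bcat1, which encodes the cytosolic branched-chain aminotransferase (0.18), and Nt5c3b, a nucleotidase gene (0.19). Neurod6 itself varied by 0.30 about its mean on the same scale. Pitpnb was at 272.6 and 259.3 on the XpO arrays and at 151.8 to 219.0 on the other 8. Nearest to Id1, which varied by 0.26, were Ptpn1, a tyrosine phosphatase gene (0.08), Atraid (0.13) and Cyhr1 (0.13). Ptpn1 was at 793.7, 954.5 and 1027.7 on XmO 1, 2 and 7 and at 703.8 and 604.8 on XpO 15 and 18. All these probe sets were picked for their likeness over these same arrays, so that they follow Neurod6 or Id1 is not a separate result.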

How the data were processed

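The authors deposited a linear intensity for each probe set on each array. How they were computed is not given in the sources used here; every array had the same mean after trimming 2% at each end (500.3). Of 12488 probe sets 66 were controls. The probe table gave 1 symbol for 10833 of the others, several for 396 and none for 1193; symbols were updated by gene identifier for 10817 (GRCm38.p6). Intensities under the 10th percentile (15) were raised to it, log2 was taken, and the 8695 probe sets whose mean reached the 30th percentile were fitted (limma 3.58.1 in R 4.3.3, 1 mean per group, eBayes with trend, 6 residual degrees of freedom, two-sided, Benjamini-Hochberg within each comparison, all 4 groups in 1 fit). Of 10 member probe sets 9 were tested. Pair correlations used 100000 permutations, two-sided (scipy 1.17.1).

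A member's fold change is printed where it was called, where its unadjusted limma p was under 0.05 or where its groups did not overlap in every cross used; of each pathway list up to 2 genes of smallest p per comparison were eligible, and other values of list genes were chosen after they were seen. Members and lists were chosen with earlier results of these data known. The labels do not say that arrays are separate animals, so p-values measure only the spread between these samples, and the number of arrays limits the precision. In simulated data with independent noise, 200 of 8695 probe sets were changed. The fit recovered 84% of log2 changes of 1 in XO against XX and 57% in XpO against XX_InX. The adjustment is easier to pass where 200 probe sets change, and in the data 1 was called in each of these comparisons. These shares therefore do not say how often a change of 1 would pass in these data. Alternatives were another floor, log2(value + 16), no filter, quantile normalization, no trend, array weights, each cross alone, a replicate block and each array left out.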

Additional observations from a re-analysis of the deposited data

How the results depend on the processing

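The count of member probe sets called by limma stayed 0 in each of the 6 comparisons and in the F test under all alternatives run (115 values; lowest adjusted p 0.208), and the member fold changes the report prints, those of the pathway genes printed for their small p and both printed correlations kept their sign (alternatives for pathway genes and the F test were added after seeing the data). Alternatives were not run for Fezf2 or the brighter Sox11 probe set. Leaving out 1 array moved the estimate in XmO against XpO between 0.37 and 0.83 for Id1 and between -0.68 and -0.17 for Neurod2, and that of Neurod6 in XpO against XX_InX between 0.63 and 0.76. In the same comparison Hes1 ran from -0.42 to -0.10 and Id2 from 0.07 to 0.44, and in XX_Paf against XX_InX Id2 ran from 0.15 to 0.51 and Neurod1 from 0.28 to 0.71. XmO and XX_Paf share the numbers 1 and 2; deviations of same-numbered arrays from their group means correlated at -0.01 and -0.04 across probe sets, so the numbers are not taken to pair arrays. With the number as a replicate block (without XmO 7 and XX_Paf 3) limma called 0 of the members. Quantile normalization shifted the median of all probe sets by less than 0.1 in log2. Changes under 1 in log2 were not simulated, so how often they would pass at this size was not tested. Neurog2 and the second Hes5 probe set are limited by background.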
